A study of Mus musculus with 39 samples.

Results

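Rdh10 is a membrane-bound retinol dehydrogenase, and 9 genes of retinoid synthesis, binding, response and breakdown were followed here in mouse melanomas: Rdh10, Dhrs3, Aldh1a1, Aldh1a2, Aldh1a3, Cyp26b1, Crabp2, Rarb and Rarg. They are 9 of the 39179 genes in the deposited count table. On build GRCm38, Rdh10 (ENSMUSG00000025921) lies on the plus strand at chr1:16105774-16133734, and its reverse partner Dhrs3 on the plus strand at chr4:144892827-144928209. The list was chosen by measured values as well as by function. Which contrast was used is not stated, and the choice may have drawn on all groups. Taken here as the selecting contrast is the combination of both drugs against vehicle on day 5. Rdh10 was 1 of 4 genes called in it among 15070 tested. Values of that contrast are therefore given for Rdh10 as a description, and support nothing. The other members stand in the list for their place in the same pathway.

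The study profiled bulk RNA from 39 Braf-mutated melanomas in C57BL/6 mice. Cultured tumour cells were injected and treatment began on day 7 after injection. There were 4 arms, each sampled at day 5 and at day 2 of treatment. The combination groups received EPAT, drugs that block EP2 and EP4 (receptors for prostaglandin E2), at 30 mpk in 200 µl doses from a 3 mg/mL solution, plus 200 µg per dose of an antibody against PD-1, an inhibitory receptor of T cells. The EPAT groups received the antagonists alone and the anti-PD-1 groups the antibody alone. The vehicle groups received the DMSO, PEG400 and water mixture in 200 µl doses. Each group held 5 libraries, except anti-PD-1 on day 2 with 4. The groups follow the labelled treatment and time point. For 3 libraries (anti-PD-1 day 5 replicate 3, EPAT day 5 replicate 5 and EPAT day 2 replicate 5) the number in the title is one that otherwise marks the other day of the same treatment, and which of these labels is right was not tested. Without these 3 libraries the adjusted p of the Rdh10 calls given below was 0.025 for the combination on day 5 and 0.0106 for the antibody over both days. All groups carry the same labelled tumour and strain, and the labels name no further allele, sex or age. Mice were randomised per the labels, which do not say that each library of a group came from its own animal, so p-values here reflect only how much these samples differ from each other, which may be technical.

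Retinol reaches cells bound to a carrier and is stored as esters or oxidised in steps. Retinol dehydrogenases such as Rdh10 make retinaldehyde and Dhrs3 turns it back into retinol. The Aldh1a enzymes oxidise retinaldehyde to retinoic acid, Crabp proteins bind that acid in the cytosol, retinoic acid receptors (RAR) act on target genes as partners of RXR, and Cyp26 enzymes break it down. In tumours, retinoic acid is known both as a differentiation signal for tumour cells and as a signal to myeloid and T cells.

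Rarb is the textbook gene that retinoic acid switches on through its own receptor, and Cyp26b1 is the member with the highest count here, so the windows around a RefSeq start of each are shown. The windows are from RefSeq (build GRCm38.p6), run 5′ to 3′ on the minus strand and cover chr14:16575427-16575726 for Rarb and chr6:84593761-84594060 for Cyp26b1. Capitals mark a DR5, a direct repeat of the retinoic acid receptor half-site with 5 bases between the copies.
Rarb: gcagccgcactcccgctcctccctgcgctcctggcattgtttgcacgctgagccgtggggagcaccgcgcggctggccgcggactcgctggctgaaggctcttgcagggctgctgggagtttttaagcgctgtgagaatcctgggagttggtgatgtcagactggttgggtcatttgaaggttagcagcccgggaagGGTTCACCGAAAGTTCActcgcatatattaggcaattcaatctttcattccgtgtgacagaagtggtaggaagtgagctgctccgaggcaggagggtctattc
Cyp26b1: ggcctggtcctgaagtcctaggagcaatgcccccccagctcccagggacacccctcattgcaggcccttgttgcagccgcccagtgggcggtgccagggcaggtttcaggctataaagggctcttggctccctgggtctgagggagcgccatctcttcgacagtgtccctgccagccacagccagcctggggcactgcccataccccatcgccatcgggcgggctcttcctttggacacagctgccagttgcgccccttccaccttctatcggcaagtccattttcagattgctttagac

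The repeat in the Rarb window starts 53 bases before the RefSeq start used (position -53). That start lies inside the annotated span of Rarb, chr14:16430839-16819156 on the minus strand, so it is an internal start and not the outermost one. The half-sites searched, on both strands, were AGGTCA and AGTTCA. The other two were GGTTCA and GGGTCA. A DR5 occurred in 32 of 32851 windows (0.0974%), and the repeat spaced by 2 bases (DR2) in 0.268%. The cyclic AMP response element TGACGTCA occurred in 1.79% of windows and TGACG, which is part of it, in 20.8%. RefSeq windows were matched for Dhrs3, Aldh1a1, Aldh1a2, Cyp26b1, Rarb and Rarg, and the Rarb DR5 was the only match among them to any of these 4 patterns. A match describes these letters and is not evidence of a bound site.

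Total counts per library ran from 8385741 to 15558113, with a median of 12193825. Counts came from 3′ tags, so a count carries no gene length. Levels are given as CPM, in which each count is divided by its library total after TMM scaling, a correction for differences in composition, and put on a per-1e6 basis. Markers of the labelled tumour were uneven. Mitf, the melanocyte lineage factor, averaged 49.2 CPM over the libraries and the receptor Kit 10.1 CPM, while the pigment genes Pmel, Dct, Mlana and Tyr averaged 0.279, 0.0259, 0.0143 and 0.00166 CPM and Tyrp1 had no count in any library. A score of lung genes such as Sftpc and Scgb1a1 was at least 3.83 (mean log2 CPM) in 23 libraries and at most -1.15 in the others. The 23 comprised 2 combination, 2 EPAT, 2 anti-PD-1 and 3 vehicle tumours of day 5 and 3 combination, 4 EPAT, 4 anti-PD-1 and 3 vehicle tumours of day 2. Values within and without these libraries are given for Rdh10 below.

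The pathway was expressed unevenly along its steps. Cyp26b1, the breakdown enzyme, averaged 266 CPM over all 39 libraries (range 55.7 to 548), which placed it at rank 547 of the 15070 tested genes. The receptor gene Rarg averaged 134 CPM (68.3 to 191) and Rdh10 104 CPM (32.4 to 184), at ranks 1390 and 1887. These ranks order 3′ tag counts, which carry no length term. Dhrs3, the enzyme that reverses the Rdh10 step, averaged 18.1 CPM (6.49 to 73.1). The synthesis enzymes were low: Aldh1a1 averaged 3.32 CPM, Aldh1a3 2.07 CPM and Aldh1a2 0.728 CPM, the last with no count in 2 libraries. Crabp2, which carries retinoic acid to its receptors, averaged 2.98 CPM. Its relative Crabp1, not among the 9, averaged 1960 CPM and ranked 29. Rarb averaged 0.271 CPM, from 129 counts in all, with none in 6 libraries, and did not pass the filter on low counts, so 8 of the 9 members were tested.

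**Figure D1:**
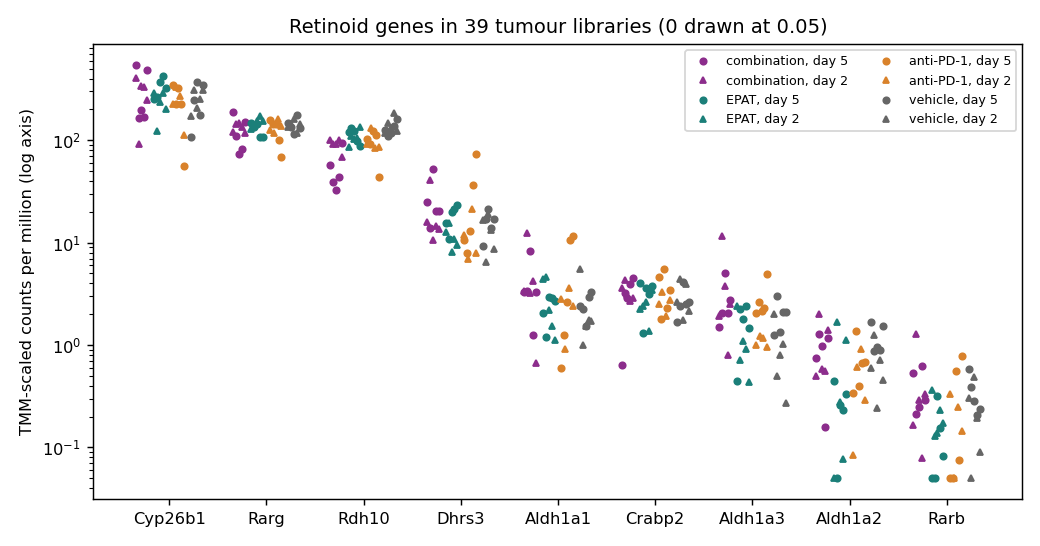
Levels of the 9 genes in each of the 39 libraries, ordered by mean, as TMM-scaled CPM on a log axis; colours give the treatment, circles day 5 and triangles day 2, and a level of 0 is drawn at 0.05. Cyp26b1, Rarg and Rdh10 lie near or above 100, the Aldh1a genes, Crabp2 and Rarb mostly below 5.

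On day 5, Rdh10 stood at 57.4, 38.9, 32.4, 43.7 and 94.5 CPM in the combination tumours. It stood at 120, 131, 124, 98.6 and 87.7 CPM in EPAT tumours and at 103, 92.8, 123, 113 and 43.9 CPM in anti-PD-1 tumours. In vehicle tumours it stood at 127, 109, 119, 137 and 163 CPM. All 5 combination tumours lay below the lowest vehicle tumour, and replicate 5 of the combination sat among the single-treatment tumours. Replicate 5 of the anti-PD-1 group was as low as the combination tumours, while the other 4 of that group were not. The means were 53.4 ± 24.8 CPM for the combination, 112 ± 18.2 for EPAT, 95.3 ± 30.9 for anti-PD-1 and 131 ± 20.6 for vehicle (SD, n = 5 each).

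The log2 fold change of Rdh10 against vehicle on day 5 was -1.29 ± 0.23 (SE) for the combination, -0.22 ± 0.22 for EPAT and -0.46 ± 0.22 for anti-PD-1. The first is the contrast taken here as the one that selected the gene. By edgeR's quasi-likelihood test with Benjamini-Hochberg adjustment over all tested genes, 0.0265% of genes were called there (4 genes, all lower: Rdh10, Fkbp5, Tmem198b and Got1), and all combination tumours lay below all vehicle tumours for 0.916% of genes. The adjusted p of Rdh10 in that contrast was 0.0148, given as a description. It was 0.306 when only the 10 libraries of these groups were fitted, and leaving out one library put it past 0.05 in 7 of 10 cases: without combination replicate 1 it was 0.107, replicate 2 0.057, replicate 3 0.0893 and replicate 4 0.13, and without vehicle replicate 1 0.0527, replicate 4 0.0517 and replicate 5 0.104. The fold change stayed between -1.60 and -1.16 over these 10.

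**Figure D2:**
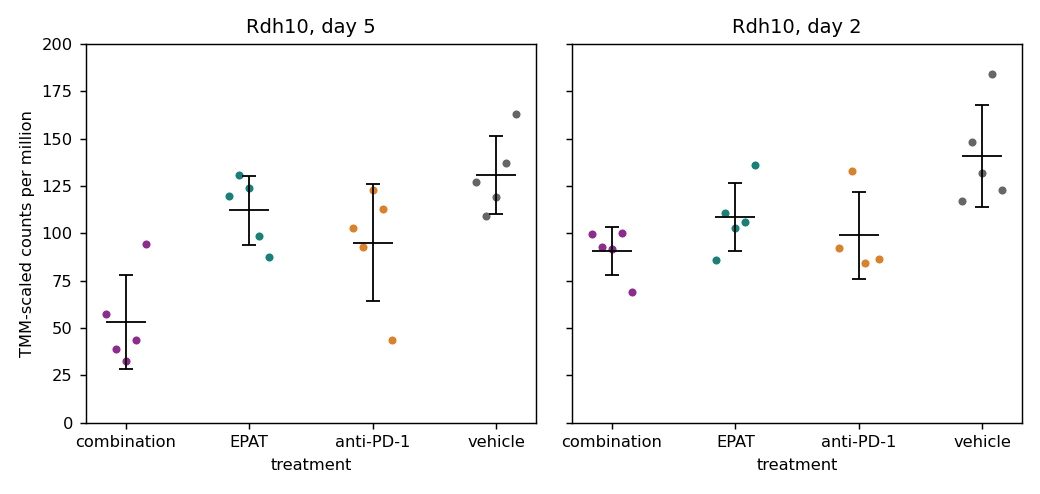
Rdh10 in TMM-scaled CPM for each library (points), with the mean (bar) and SD (whiskers) of each group, day 5 left and day 2 right. On both days all 5 combination tumours lie below every vehicle tumour, with means of 53.4 against 131 on day 5 and 90.8 against 141 on day 2.

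The day 2 levels do not enter the day 5 fold change, but all 39 libraries shared 1 fit and so 1 estimate of spread, and the list was drawn over all 8 groups. On day 2, Rdh10 stood at 99.9, 92.7, 92.0, 100 and 69.0 CPM in combination tumours, at 86.2, 111, 103, 106 and 136 CPM in EPAT tumours and at 92.1, 133, 84.2 and 86.5 CPM in anti-PD-1 tumours. In vehicle tumours it stood at 117, 148, 132, 184 and 123 CPM. All 5 combination tumours, 4 of 5 EPAT tumours and 3 of 4 anti-PD-1 tumours lay below the lowest vehicle tumour. All 14 treated tumours lay below the vehicle mean. The treatments share these vehicle tumours. How many genes of the table give such counts for EPAT and anti-PD-1, or for all 14, was not counted. The means were 90.8 ± 12.8 CPM for the combination, 108 ± 17.9 for EPAT, 98.9 ± 22.8 for anti-PD-1 and 141 ± 26.8 for vehicle (SD; n = 5, 5, 4 and 5).

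On day 2 no gene of the table passed the edgeR test in any of the 3 comparisons with vehicle, Rdh10 included. The log2 fold change of Rdh10 was -0.63 ± 0.22 for the combination (adjusted p = 0.27), -0.38 ± 0.22 for EPAT (adjusted p = 0.828) and -0.51 ± 0.24 for anti-PD-1 (adjusted p = 0.671). On this day all combination tumours lay below all vehicle tumours for 1.93% of the tested genes, Rdh10 among them.

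Ordered by mean, the 8 groups ran from vehicle day 2 through vehicle day 5, EPAT day 5, EPAT day 2, anti-PD-1 day 2, anti-PD-1 day 5 and combination day 2 to combination day 5. Only the last step, between the combination groups, was larger than the larger SD of its pair. Against the single treatments, the log2 fold change of Rdh10 in the combination on day 5 was -1.07 ± 0.23 relative to EPAT (adjusted p = 0.131) and -0.84 ± 0.23 relative to anti-PD-1 (adjusted p = 0.431). These share the selecting libraries. Without combination replicate 5 the values were -1.38 (adjusted p = 0.00334) and -1.15 (adjusted p = 0.0265), so that library decides both calls. On day 2 the same log2 fold changes were -0.25 ± 0.22 and -0.12 ± 0.24, neither past the threshold (adjusted p = 0.83 and 0.961).

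Averaged over both days, tumours with anti-PD-1 had 83.8 ± 28.8 CPM of Rdh10 (SD, n = 19) and tumours without it 123 ± 23.8 (n = 20). The log2 fold change was -0.57 ± 0.11, called with an adjusted p of 0.0107 in a comparison that called 2.56% of genes, and the adjusted p stayed between 0.00355 and 0.0232 whichever library was left out. Of the 386 genes called there, 97 were lower. The comparison includes the selecting libraries, so its p-values for Rdh10 are a description. On day 2 alone the value was -0.38 ± 0.16 (adjusted p = 0.675), and on day 5 alone -0.76 ± 0.16 (adjusted p = 0.147). Tumours with EPAT had 91.1 ± 29.5 CPM (n = 20) and those without 117 ± 31.1 (n = 19), a log2 fold change of -0.39 ± 0.11 that did not pass (adjusted p = 0.699). Within libraries with lung transcripts, the log2 difference of Rdh10 between combination and vehicle was -1.77 on day 5 (2 against 3 libraries) and -0.73 on day 2 (3 against 3). Within libraries without them it was -1.02 (3 against 2) and -0.47 (2 against 2).

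Rdh10 was lower where macrophage markers were higher. The macrophage score, the mean log2 CPM of 9 markers including Adgre1, Csf1r, Mrc1 and the C1q genes, was on day 5 8.24 to 9.32 in combination, 7.15 to 8.45 in EPAT, 7.53 to 9.61 in anti-PD-1 and 7.58 to 8.60 in vehicle tumours. On day 2 it was 7.95 to 8.52 in combination, 7.70 to 8.15 in EPAT, 7.80 to 8.36 in anti-PD-1 and 7.42 to 7.93 in vehicle tumours. All 9 markers were counted in every library. Over the 39 libraries Rdh10 correlated with this score at Pearson r = -0.66 and Spearman rho = -0.62 (permutation p = 2.00e-05 and 5.00e-05, adjusted 2.60e-04 and 7.31e-04 over 117 pairs of member and cell type score). Without the 2 libraries farthest from the median score r was -0.47, and on values centred on their group means it was -0.53. Among tested genes, 6.3% had an r with this score as negative as -0.66. The 39 libraries include those that selected Rdh10. Permutations here and below ran across all groups, so their p-values also reflect differences between groups. For Rdh10 they are a description. In bulk tumours, fewer cells of a type and less RNA per cell cannot be told apart, and the part of cell content in the Rdh10 differences was not tested.

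Rdh10 was also lower where other scores were higher. These correlations use the same libraries, the selecting ones included, and their p-values are a description. Its r was -0.58 with the monocyte score (rho = -0.63), -0.59 with the dendritic cell score (rho = -0.61) and -0.51 with the T and NK cell score (rho = -0.64), with adjusted permutation p of 6.30e-04, 7.02e-04 and 0.0068. Without the 2 farthest libraries the r was -0.60, -0.50 and -0.67. For the monocyte score only 1.06% of tested genes had as negative an r, against 6.3% for dendritic cells and 5.2% for T and NK cells. The r also passed with endothelium (-0.46, rho = -0.33, adjusted permutation p = 0.0158), the melanocyte and melanoma score (-0.44, rho = -0.36, 0.0206) and neutrophils (-0.43, rho = -0.43, 0.0257). Without the 2 farthest libraries it was -0.45, -0.20 and -0.60. As negative an r was found for 15.6%, 11.8% and 14.4% of tested genes. The rho passed with neutrophils (adjusted permutation p = 0.0329), and not with endothelium (0.121) or the melanocyte and melanoma score (0.0915). The melanocyte and melanoma score is the mean of 10 markers, of which only 5 passed the filter on low counts. The r of Rdh10 did not pass with fibroblasts (-0.35, adjusted p = 0.0892) or skeletal muscle (-0.27, adjusted p = 0.243). With the lung, keratinocyte, adipocyte and B cell scores the r lay between -0.03 and 0.15 and did not pass.

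**Figure D3:**
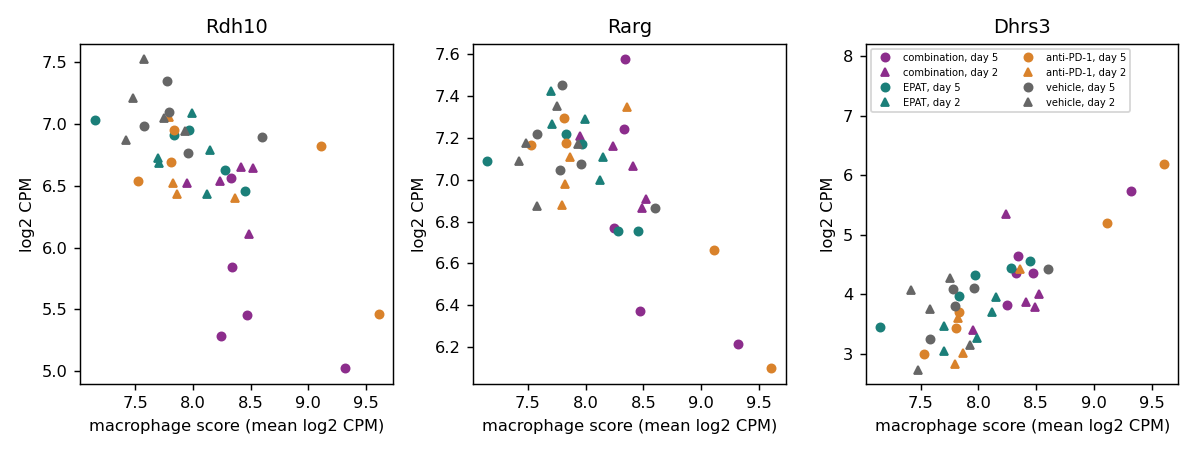
Log2 CPM of Rdh10, Rarg and Dhrs3 against the macrophage score of the same library (mean log2 CPM of 9 markers), 39 libraries, coloured by treatment with circles for day 5 and triangles for day 2. Rdh10 and Rarg fall and Dhrs3 rises with the score (r = -0.66, -0.68 and 0.79), and 3 day 5 libraries, 1 combination and 2 anti-PD-1, lie apart at the highest scores.

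Dhrs3, which reduces retinaldehyde back to retinol, passed in no comparison. On day 5 it stood at 24.8, 13.9, 52.8, 20.4 and 20.3 CPM in combination tumours, at 15.6, 10.8, 19.9, 21.4 and 23.3 CPM in EPAT tumours and at 10.7, 7.87, 12.9, 36.6 and 73.1 CPM in anti-PD-1 tumours. In vehicle tumours it stood at 9.37, 17.1, 21.3, 13.8 and 16.9 CPM. The groups overlapped, and combination replicate 3 and anti-PD-1 replicates 4 and 5 were the highest of the day. The log2 fold change against vehicle was 0.75 ± 0.45 for the combination (adjusted p = 0.403), 0.22 ± 0.45 for EPAT (adjusted p = 1) and 0.85 ± 0.45 for anti-PD-1 (adjusted p = 0.645). On day 2 the means were 19 ± 12.3 CPM for the combination, 11.3 ± 2.85 for EPAT, 12.1 ± 6.59 for anti-PD-1 and 12.9 ± 5.29 for vehicle, and no comparison passed.

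Over all arms, Dhrs3 averaged 22.1 ± 15.7 CPM on day 5 (n = 20) and 13.9 ± 7.69 CPM on day 2 (n = 19), a log2 fold change of 0.67 ± 0.23 with an adjusted p of 0.119. Without combination day 2 replicate 2, whose level was 40.8 CPM, it was 0.78 with an adjusted p of 0.0467. Dhrs3 was higher where several cell type scores were higher: r was 0.79 with macrophages, 0.76 with fibroblasts, 0.76 with endothelium and 0.73 with the melanocyte and melanoma score (rho = 0.68, 0.64, 0.73 and 0.61; adjusted permutation p = 1.95e-04 for each r, from the smallest p that 100000 permutations can give). Without the 2 farthest libraries these r were 0.65, 0.67, 0.67 and 0.59. As positive an r was found for 2.3%, 2.1%, 1.94% and 0.332% of tested genes. The last score is the mean of 10 markers, of which only 5 passed the filter on low counts. The part of these cells in the Dhrs3 values was not tested.

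The ratio of Rdh10 to Dhrs3 within a library sets the forward step beside the reverse one. Its median on day 5 was 2.31 in combination tumours (range 0.614 to 4.66), 6.23 in EPAT tumours (3.76 to 12.1), 9.53 in anti-PD-1 tumours (0.601 to 11.8) and 9.64 in vehicle tumours (5.59 to 13.6). On day 2 the median was 6.32 in combination tumours (range 2.27 to 8.76), 9.81 in EPAT tumours (6.73 to 14.3), 9.29 in anti-PD-1 tumours (3.93 to 19.1) and 13.8 in vehicle tumours (6.88 to 22.8). The combination and vehicle ranges did not overlap on day 5 and overlapped on day 2. The ratio contains the selected Rdh10 values and is a description.

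The Aldh1a enzymes, which make retinoic acid, were all expressed at low levels, and none of the 3 passed the edgeR test in any comparison. Aldh1a3 on day 2 stood at 1.91, 11.6, 3.75, 0.791 and 2.49 CPM in combination tumours, at 2.43, 0.714, 1.10, 0.923 and 0.435 CPM in EPAT tumours and at 1.00, 1.23, 1.17 and 0.952 CPM in anti-PD-1 tumours. In vehicle tumours it stood at 2.03, 0.5, 0.804, 1.03 and 0.271 CPM. Combination replicate 2 lay far above the rest. That library also had the lowest T and NK cell score of all libraries (0.513). Its Crabp1 level was 590 CPM, against 1640 to 1810 CPM in the rest of its group. The part of its cell content in its Aldh1a3 level was not tested. The combination and vehicle groups overlapped. The log2 fold change was 2.09 ± 0.54 with an adjusted p of 0.161 by edgeR and 0.0263 by DESeq2. Between tumours with and without anti-PD-1 on both days it was 0.81 ± 0.27, with levels of 2.75 ± 2.44 CPM (n = 19) and 1.42 ± 0.802 CPM (n = 20). That did not pass in edgeR (adjusted p = 0.0775) and passed in DESeq2 (adjusted p = 0.0397).

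Aldh1a2 on day 5 had 5, 0, 4, 3 and 4 counts in the EPAT tumours and 20, 9, 10, 13 and 26 counts in the vehicle tumours. All EPAT tumours lay below all vehicle tumours, as for 0.259% of tested genes in that comparison. The mean levels were 0.254 ± 0.165 CPM with EPAT and 1.19 ± 0.387 CPM with vehicle (SD, n = 5 each), and the log2 fold change of -2.13 ± 0.71 had an adjusted p of 1 (unadjusted p = 0.00514). Combination tumours had 7, 18, 12, 2 and 12 counts and anti-PD-1 tumours 4, 13, 5, 9 and 8 on the same day. On day 2 the EPAT group gave 0, 26, 4, 1 and 13 counts and vehicle 8, 10, 3, 11 and 5, with a log2 fold change of 0.02 ± 0.65. The difference between days was tested on the mean effect of EPAT with and without the antibody, and gave -1.44 ± 0.69 (adjusted p = 1).

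Aldh1a1 ranged from 0.599 to 12.3 CPM, and its levels were uneven within groups. On day 5 the group means were 3.91 ± 2.61 CPM for the combination, 2.36 ± 0.744 for EPAT, 5.36 ± 5.35 for anti-PD-1 and 2.49 ± 0.681 for vehicle (n = 5 each). The anti-PD-1 mean came from replicates 4 and 5, at 10.7 and 11.6 CPM, against 0.599, 1.26 and 2.64 CPM in the other 3. The log2 fold changes against vehicle on day 5 were 0.64 ± 0.63, -0.07 ± 0.63 and 1.10 ± 0.62 in the same order, none past the threshold (adjusted p = 0.617, 1 and 0.645). Across libraries Aldh1a1 correlated with Dhrs3 (r = 0.72, rho = 0.60). Its highest r with a score was 0.66, with melanocyte and melanoma markers (rho = 0.54, adjusted permutation p = 2.60e-04; r = 0.55 without the 2 farthest libraries), as positive as for 1.86% of tested genes. With the fibroblast score r was 0.59 (rho = 0.42, adjusted permutation p = 6.69e-04, and r = 0.41 without the 2 farthest), as positive as for 8.31% of tested genes. Only 5 of the 10 melanocyte and melanoma markers passed the filter on low counts.

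Cyp26b1, which clears retinoic acid, was abundant and variable in every arm. On day 5 it stood at 548, 166, 198, 168 and 481 CPM in combination tumours, at 252, 264, 374, 423 and 321 CPM in EPAT tumours and at 347, 225, 321, 225 and 55.7 CPM in anti-PD-1 tumours. In vehicle tumours it stood at 107, 245, 372, 177 and 345 CPM. The combination tumours fell into a pair above all vehicle tumours and 3 within the vehicle range. The log2 fold change against vehicle was 0.33 ± 0.40 for the combination, 0.39 ± 0.40 for EPAT and -0.09 ± 0.40 for anti-PD-1, and none passed (adjusted p = 0.703, 1 and 0.958). On day 2 the means were 283 ± 121 CPM for the combination, 229 ± 69.4 for EPAT, 235 ± 91.9 for anti-PD-1 and 251 ± 61.3 for vehicle, with log2 fold changes between -0.13 and 0.17. Cyp26a1, the related enzyme, averaged 0.0838 CPM with no count in 18 libraries.

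Of the binding protein and the receptors, Rarg was the steadiest member. Its group means on day 5 were 122 ± 49.0 CPM for the combination, 129 ± 19.7 for EPAT, 123 ± 37.1 for anti-PD-1 and 141 ± 22.1 for vehicle. On day 2 they were 132 ± 13.9, 150 ± 17.2, 136 ± 19.6 and 141 ± 16.7 in the same order. The 6 log2 fold changes against vehicle lay between -0.22 and 0.08 with SE of 0.19 to 0.21, and none passed. Rarg was lower where several host cell scores were higher, at r = -0.69 with endothelium, -0.68 with macrophages and -0.65 with dendritic cells (rho = -0.59, -0.49 and -0.57; adjusted permutation p = 3.19e-04, 2.60e-04 and 1.95e-04). Without the 2 farthest libraries the r was -0.58, -0.44 and -0.59. As negative an r as over all libraries was found for 3.5%, 5.57% and 3.36% of tested genes.

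Crabp2 ranged from 0.645 to 5.59 CPM and its 6 log2 fold changes against vehicle lay between -0.29 and 0.41, with SE of 0.35 to 0.38. Rarb, with the DR5 shown above at its internal start, was at the edge of detection. On day 5 it had 5, 3, 3, 8 and 3 counts in combination tumours, 0, 0, 5, 2 and 1 in EPAT tumours, 0, 0, 7, 1 and 9 in anti-PD-1 tumours and 7, 4, 3, 3 and 4 in vehicle tumours. Its highest level, 1.28 CPM from 14 counts, was in combination day 2 replicate 2, where Dhrs3, Aldh1a1, Aldh1a2, Aldh1a3 and Crabp2 also had the highest level of their group. Rarb overlaps Top2b, annotated on the other strand, at its 3′ end, and no source used here gives the strand setting of the counting, so Rarb counts are uncertain.

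**Figure D4:**
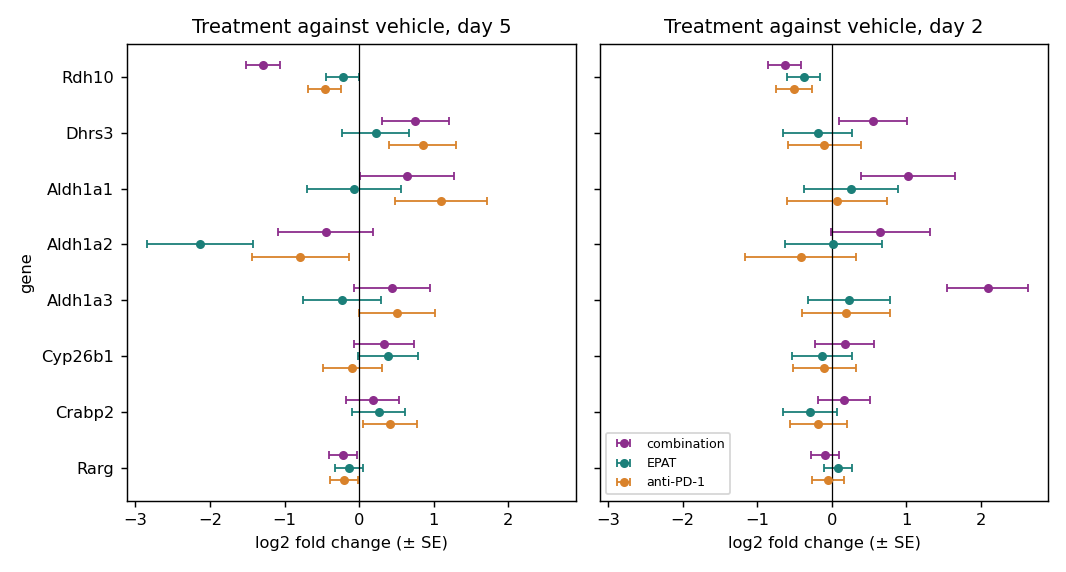
Log2 fold change of each tested member against vehicle (points) with its SE (bars), day 5 left and day 2 right, for the combination, EPAT and anti-PD-1. Rdh10 is below 0 in all 6 comparisons (-0.22 to -1.29), which include the selecting contrast and share the vehicle tumours of each day. The other members lie on both sides of 0. The points farthest from 0 are Aldh1a2 with EPAT on day 5 (-2.13) and Aldh1a3 with the combination on day 2 (2.09), neither of which passed.

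Set against the whole table, few genes of any kind were called. Against vehicle, edgeR called 0% of genes for EPAT on day 5 (256 genes at an unadjusted p under 0.05, 3 called by DESeq2) and 0% for anti-PD-1 on day 5 (1077 and 1). On day 2 it called 0% for the combination (1541 and 85), 0% for EPAT (939 and 1) and 0% for anti-PD-1 (1073 and 2). For the combination against EPAT it called 0% on day 5 (1917 and 24) and 0% on day 2 (1109 and 20). For the combination against anti-PD-1 it called 0.0199% on day 5 and 0% on day 2 (656 and 0). The antagonists as a factor called 0.0133% on day 5, 0% on day 2 (521 and 0) and 0% over both days (850 and 3), with 0% for the difference between days (308 and 3). The antibody as a factor called 0% on day 5 (2842 and 100) and 0% on day 2 (1081 and 3). limma on the deposited log2 values called 1 gene for the combination on day 2 and none in the other comparisons given here as 0%. Of the members, Rdh10 alone was called by edgeR, in the selecting contrast and for the antibody over both days. Both calls use the selecting libraries and are a description.

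The median log2 fold change of the 8 tested members for the combination against vehicle was 0.25 on day 5, beside -0.01 over all tested genes, with 5 members above 0 and 3 below. On day 2 it was 0.36 beside -0.02, with 6 above 0 and 2 below. For EPAT it was -0.10 beside -0.01 on day 5 and -0.06 beside -0.02 on day 2. For anti-PD-1 it was 0.16 beside 0.02 on day 5 and -0.10 beside -0.01 on day 2. The single-treatment and combination comparisons of a day share the vehicle tumours.

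The wider pathway was read from a list of 50 further retinoid genes in the table, of which 34 were tested, and from 24 known retinoic acid targets, 21 tested, which include 4 of the 9 members. No gene of either list was called against vehicle on either day. For the combination on day 5 the targets had 15 genes above 0 and 6 below, with a median log2 fold change of 0.26 beside -0.01 over all tested genes. For anti-PD-1 on day 5 they had 14 above and 7 below (median 0.24, beside 0.02). For EPAT on day 5 they had 10 above and 11 below (-0.07, beside -0.01). On day 2 the numbers above and below were 11 and 10 for the combination (median 0.03). They were 6 and 15 for EPAT (-0.13) and 10 and 11 for anti-PD-1 (-0.04). For tumours with against without anti-PD-1 over both days, 2 of 34 pathway genes and 2 of 21 targets were called, all higher, beside 2.56% of all tested genes called in either direction (289 higher and 97 lower). Fabp5, which carries retinoic acid among other lipids, averaged 122 ± 83.3 CPM with the antibody (n = 19) and 51.7 ± 36.4 without (n = 20), a log2 fold change of 1.14 ± 0.25 (adjusted p = 0.0189). The receptor gene Rara averaged 28.3 ± 6.03 CPM with and 22.6 ± 4.13 without (0.33 ± 0.09, adjusted p = 0.0469). Among the targets, the ectoenzyme gene Cd38 averaged 23.8 ± 10.9 CPM with and 11.9 ± 4.42 without (1.00 ± 0.20, adjusted p = 0.0112), and Rarres2, which encodes the chemoattractant chemerin, 195 ± 85.9 CPM with and 106 ± 67.9 without (0.88 ± 0.25, adjusted p = 0.0489).

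The calls of Fabp5 and Cd38 held whichever library was left out, with adjusted p up to 0.0365 and 0.0244. Rara lost its call in 22 of 39 such fits and Rarres2 in 27 of 39, with adjusted p up to 0.0829 and 0.0946. Rara also lost it by limma (adjusted p = 0.0611), and without the filter on low counts both lost it (0.0684 for Rara, 0.0955 for Rarres2). Cd38 and Fabp5 are also expressed by immune cells, whose part in these differences was not tested. By the arms with EPAT, no gene of these lists passed. Those with the smallest p over both days, none past the threshold, were Stra6l, related to the retinol-binding protein receptor Stra6, at 0.59 ± 0.20 (adjusted p = 0.735), and Retsat, an enzyme that saturates retinol, at -0.27 ± 0.11 (adjusted p = 0.83). On day 2 they were the same pair, at 0.65 ± 0.28 and -0.39 ± 0.15 (adjusted p = 0.998 for both), and on day 5 Stra6l at 0.54 ± 0.27 and the lipase gene Lpl at 1.13 ± 0.46 (adjusted p = 0.999 for both). Over all libraries the level of the receptor gene Stra6 averaged 2.66 CPM, the dehydrogenase gene Rdh11 32.2 CPM and the RAR partner gene Rxra 20.5 CPM.

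Several genes that carry or store retinol differed between the days. Between day 5 and day 2 over all arms, 2.2% of genes were called, none of them a member. Of 34 pathway genes 2 fell. Rbp4, the plasma carrier of retinol, averaged 2.60 ± 1.15 CPM on day 5 (n = 20; lowest 1.12, median 2.15, highest 5.43) and 5.42 ± 2.41 CPM on day 2 (n = 19; lowest 3.32, median 4.91, highest 12.8). Its log2 fold change was -1.09 ± 0.18 (adjusted p = 0.00131). Lrat, which esterifies retinol for storage, averaged 1.77 ± 0.85 CPM on day 5 and 3.38 ± 1.43 CPM on day 2 (-0.99 ± 0.24, adjusted p = 0.0246). Both groups of levels overlapped. The libraries with lung transcripts, listed above, were not spread evenly over the days. The part of cell and tissue content in the differences between days was not tested.

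Fabp5 averaged 113 ± 86.8 CPM on day 5 and 57.7 ± 37.6 CPM on day 2 (0.92 ± 0.25, adjusted p = 0.046). Among the targets, which share Lrat with the pathway list, Tnip1, an inhibitor of inflammatory signalling, was also higher at 114 ± 29.7 CPM on day 5 against 84.1 ± 19.3 CPM on day 2 (0.42 ± 0.10, adjusted p = 0.0185). The calls of Rbp4 and Tnip1 held whichever library was left out. Lrat lost its call without anti-PD-1 day 2 replicate 5 (adjusted p = 0.0542). Fabp5 lost it in 26 of 39 such fits. By limma neither Lrat nor Fabp5 passed (adjusted p = 0.177 and 0.12), nor did they without the 3 libraries whose title number marks the other day (0.0597 and 0.0739).

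**Figure D5:**
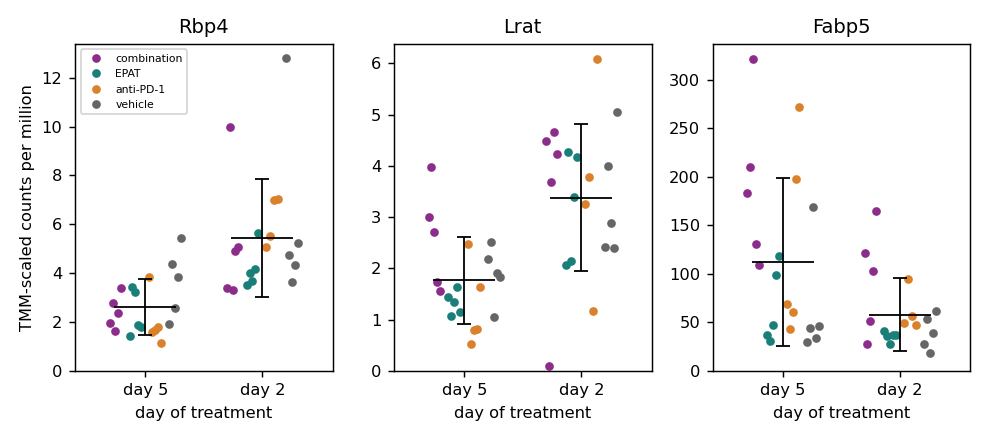
Rbp4, Lrat and Fabp5 in TMM-scaled CPM in each library, day 5 left and day 2 right, coloured by treatment, with the mean (bar) and SD (whiskers) of each day. Rbp4 and Lrat are lower on day 5 (means 2.60 against 5.42 and 1.77 against 3.38) and Fabp5 is higher (113 against 57.7). The days overlap for each gene, least for Rbp4, whose day 5 median (2.15) lies below its lowest day 2 level (3.32).

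Some members varied together. Over the 39 libraries Rdh10 correlated with Rarg at r = 0.56 (rho = 0.32) and with Dhrs3 at r = -0.50 (rho = -0.37), and Dhrs3 with Rarg at r = -0.54 (rho = -0.35). With group means removed these r were 0.58, -0.43 and -0.46. These points share library depth and cell content, and the values are descriptions. Among 11800 genes with a mean log2 CPM of at least 1, those most like Rdh10 over all libraries were Tmem198b (r = 0.84), Sulf2 (0.83), Creb3l2 (0.81), Hoxa5 (0.80) and Wasf1 (0.80). With group means removed they were Pls3 (r = 0.81), Cp (0.79), Sulf2 (0.78), Hoxd8 (0.78) and Ppm1l (0.78). Tmem198b was called with Rdh10 in the selecting contrast, and Hoxa5 is on the list of retinoic acid targets.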

How the data were processed

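Bulk tumour RNA was sequenced with a QuantSeq forward kit from 500 ng of total RNA, per the labels' protocols, which speak of tumours isolated on day 4; the groups used here are those of the labelled time points. The authors deposited whole-number counts per gene (39179 genes) and log2 CPM values (16095 genes), which equal log2(count + 0.5) plus 1 constant per library within 5e-09. The submitters' processing notes name bcl2fastq, STAR, featureCounts, limma and mm10/GRCm38; no source used here gives versions or the strand setting. Counts were tested with edgeR 4.0.16 (R 4.3.3): filterByExpr (minimum count 10, total 15) kept 15070 genes, and a robust quasi-likelihood fit with TMM scaling covered all 39 libraries with 1 mean per group (31 residual degrees of freedom). Tests are 2-sided, adjusted by Benjamini-Hochberg over all tested genes per comparison, threshold 0.05; SE is the fold change over the square root of F. There were 18 comparisons, 2 added after seeing the data. Levels and folds without a test are described only. Correlations used 100000 permutations of libraries across all groups. DESeq2 1.42.0, limma 3.58.1 (log2 values), RLE scaling, no filter, the compared groups alone, a replicate term and left-out libraries were the alternatives. The pipeline was tested on simulated data. Symbols came from GENCODE by identifier (37607 matched). No library pair agreed within counting noise (lowest chi-square per gene 10.1). Named genes were all members, pathway genes past the threshold or otherwise the 2 with the smallest p by EPAT arms, a few pathway genes in any case, and the 5 most like Rdh10. Members and lists were chosen with earlier results of these data known. The values of 1 pathway gene are not reported here.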

Additional observations from a re-analysis of the deposited data

Results flagged for a closer look

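In 8 of 72 groups of a member the highest or lowest library lay far from the rest by Dixon's criterion. Independent, normally spread values meet it in about 1 of 20 groups. CPM values need not be normal, and the groups of different members share libraries, so no excess over chance is read from the 8. Rdh10 was lowest in combination day 2 replicate 5, at 69.0 CPM against 92.0 to 100 in the other 4, and highest in anti-PD-1 day 2 replicate 2, at 133 CPM against 84.2 to 92.1. Dhrs3 was highest in combination day 5 replicate 3, at 52.8 CPM against 13.9 to 24.8, and in combination day 2 replicate 2, at 40.8 CPM against 10.5 to 15.8. In the same day 2 tumour Aldh1a3 stood at 11.6 CPM against 0.791 to 3.75 and Rarb at 1.28 CPM against 0.0791 to 0.332. Aldh1a3 was also high in anti-PD-1 day 5 replicate 5, at 4.92 CPM against 2.05 to 2.62. Aldh1a1 was high in vehicle day 2 replicate 1, at 5.58 CPM against 0.999 to 1.75. No cause was tested.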

How the results depend on the processing

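Of 4182 member and pathway values recomputed under other settings, 103 lost a call and 11 gained one. Only values called in the main fit could lose a call, and most of the 4182 were not called there. With a call in either fit, 0 changed sign. Among the member values alone 204 took the opposite sign, 0 of them past the threshold in either fit. Counts of called genes moved more, and the cause was not tested. DESeq2 called, against vehicle on day 2, 85 genes for the combination, 1 for EPAT and 2 for anti-PD-1, and on day 5 it called 65, 3 and 1. Of the combination against EPAT it called 24 on day 5 and 20 on day 2, and against anti-PD-1 on day 5 18. By arms with EPAT it called 5 on day 5, 3 over both days and 3 for the difference between days. By arms with anti-PD-1 it called 1060 over both days, 100 on day 5 and 3 on day 2, and between days 669. By DESeq2 Rdh10 also passed against EPAT on day 5 (adjusted p = 0.00939) and by anti-PD-1 arms on day 5 (0.0102). limma called 1 gene for the combination against vehicle on day 2, 209 by anti-PD-1 arms over both days and 137 between days. RLE scaling called 2 for the combination against EPAT on day 5. Without the filter there were 2 for the combination against vehicle on day 5, 0 against anti-PD-1, 0 by EPAT arms on day 5, 162 by anti-PD-1 arms and 209 between days. With only the compared groups fitted there were 99 for the combination and 1 for the combination against EPAT on day 2, 23 by anti-PD-1 arms on day 2, 1 for EPAT on day 5, and 0 for the combination against vehicle, against anti-PD-1 and by EPAT arms on day 5. Vehicle day 2 replicate 1 had the highest adipocyte (6.225) and B and plasma cell (4.638) scores of all libraries, and replicate 2 the highest keratinocyte score (3.611). Without vehicle day 2 replicates 1 and 2, 232 genes were called by anti-PD-1 arms. In that edgeR fit Rara and Rarres2 lost their calls by anti-PD-1 arms (adjusted p = 0.0505 and 0.0777). Fabp5 lost its call between days there (adjusted p = 0.079). Without the 3 libraries whose title number marks the other day, an alternative added after seeing the data, 2 were called for the combination against vehicle on day 5, 0 against anti-PD-1, 1 by EPAT arms on day 5 and 718 by anti-PD-1 arms over both days.

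Equal replicate numbers did not pair the samples: in 0 of 28 pairs of groups were all same-numbered correlations over 0.1, and 12 of 39 libraries correlated best with their own number. With the replicate block, 149 genes were called between days and 0 for the combination against anti-PD-1 and by EPAT arms on day 5. Rara and Rarres2 by anti-PD-1 arms, and Lrat and Fabp5 between days, lost their calls there (adjusted p = 0.0502, 0.0511, 0.0501 and 0.0973).

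Leaving out each library in turn gave 0 to 205 genes for the combination against vehicle on day 5 and 0 to 20 on day 2. Against anti-PD-1 it gave 0 to 6 on day 5 and 0 to 1 on day 2, and against EPAT 0 to 4 and 0 to 1. By anti-PD-1 arms it gave 147 to 1300 over both days, 0 to 231 on day 5 and 0 to 3 on day 2, by EPAT arms 0 to 3 on day 5, and between days 137 to 574. The highest counts for the combination against vehicle on day 5 and by anti-PD-1 arms came without vehicle day 5 replicate 3. Of 117 correlations with cell type scores 31 passed, and 29, 26 and 25 without vehicle day 2 replicates 1 and 2, on group-centred values and by Spearman. Genes with few counts, such as Aldh1a2 and Rarb, are limited by depth: 3 counts are the limit that a count of 0 allows.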
